A study of Mus musculus with 8 samples.

Results

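The 10 genes described here encode receptors for extracellular nucleotides and adenosine, and the cell-surface enzymes that make or remove their ligands. They were chosen by gene symbol from the 54532 entries of the count table. They comprise the ATP-gated channels *P2rx4* and *P2rx7*, the G protein-coupled nucleotide receptors *P2ry1*, *P2ry2* and *P2ry6*, the adenosine receptors *Adora2a* and *Adora2b*, and the ecto-enzymes *Entpd1*, *Nt5e* and *Cd38*. Each was found as 1 entry. RNAseq was carried out on primary lung fibroblasts (pFBs) in 4 WT libraries, of genotype wild type, and 4 HOMO libraries, of genotype hIGFBP5. HOMO mice are homozygous for a CRISPR/Cas9 knock-in of human *IGFBP5*, driven everywhere in the animal by the Ef1a1 promoter, so the transgene is not limited to fibroblasts. According to the labels and methods, both genotypes shared the C57/black strain background, the mice were female, and the cultured cells received no treatment. The age of the mice and the number of mice behind the libraries are not given in the sources used here. The study's text speaks of differences between HOMO mice, but the labels tie no library to a mouse, so the p-values measure the spread between these libraries, which may in part be technical.

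Cells release ATP, ADP, UTP and UDP when they are stretched, stressed or damaged. P2X receptors are channels that open on ATP and admit sodium and calcium, while P2Y receptors are coupled to G proteins that act through phospholipase C or adenylyl cyclase. On the cell surface, CD39 (*Entpd1*) removes phosphates from ATP and ADP to leave AMP, and CD73 (*Nt5e*) turns AMP into adenosine, which the receptors of *Adora2a* and *Adora2b* read through cyclic AMP. CD38 uses extracellular NAD. In lung, adenosine, the A2B receptor and P2X7 have been studied in inflammation and fibrosis, and CD73 is also a surface marker of mesenchymal stromal cells.

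The counts summed to 17236521 to 29028769 in the WT libraries and to 19009027 to 31987790 in the HOMO libraries. At these depths, 3 counts corresponded to 0.0908 to 0.172 CPM (counts relative to library sizes scaled by edgeR's TMM method), a floor that covers counting error only. The libraries were not equally far apart. The pairs WT1 with WT2, HOMO1 with HOMO2 and HOMO3 with HOMO4 had biological coefficients of variation of 4.71 to 7.64%, where the 9 remaining pairs within a genotype had 30.0 to 55.7%, although their counts still differed by more than sampling noise. WT3 and WT4 stood apart in macrophage genes. They also stood above WT1 and WT2 in the mesothelial and the smooth muscle and pericyte markers given below. The summed level of 14 macrophage markers was 2498 CPM in WT3 and 1502 CPM in WT4, against 153 and 186 CPM in WT1 and WT2 and 62.7 to 230 CPM in the HOMO libraries. All 14 were tested and 13 had a negative log2 fold change (median of the 14, −2.71). EdgeR called 0 of the 14, with 9 at an unadjusted p under 0.05. DESeq2 called 6 and limma-voom 1, *Cd14*. *Cd14* was the 1 marker with a positive log2 fold change. It was at 4.23, 3.96, 5.74 and 4.39 log2 CPM in WT1 to WT4 and at 4.85 to 5.24 log2 CPM in HOMO. None of the 14 was at 0 in any library. In bulk RNA, fewer cells of a type and less RNA per cell cannot be told apart. The 8 fibroblast markers summed to 9925 to 14029 CPM in WT and 12459 to 22319 CPM in HOMO. Most of that sum was *Col1a1* and *Col1a2*, with means of 4917 and 4144 CPM in WT and 8669 and 6552 CPM in HOMO. The median log2 fold change of the 8 was 0.0058, and edgeR called 1 of them, *Pdgfrb*, lower in HOMO (−0.97, adjusted p = 0.0251). For *Thy1* it was −1.62 (edgeR adjusted p = 0.116). The 7 endothelial markers summed to at most 7.82 CPM and lymphocyte markers to at most 0.451 CPM. Epithelial markers summed to 0 to 0.542 CPM in WT and 1.20 to 7.81 CPM in HOMO. Mesothelial markers summed to 21.3, 23.3, 152 and 117 CPM in WT1 to WT4 and to 90.1 to 129 CPM in HOMO. Smooth muscle and pericyte markers summed to 9.06, 7.76, 84.9 and 66.7 CPM in WT1 to WT4. In HOMO1 to HOMO4 they summed to 5.71, 5.36, 31.3 and 32.2 CPM. EdgeR called 1 epithelial marker (*Cdh1*, which passed the filter on low counts through HOMO alone) and 1 of 4 mesothelial markers higher in HOMO. It called 1 of 4 smooth muscle and pericyte markers lower. Limma-voom called all 4 mesothelial markers. The table has 0 entries under the human symbol of the transgene, so that gene could not be used to check the labels. For mouse *Igfbp5*, WT1 to WT4 held 130, 225, 7130 and 112 counts, which again set WT3 apart, and HOMO1 to HOMO4 held 24, 37, 37 and 57.

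Of the 10 genes, 9 passed the filter on low counts, and edgeR's quasi-likelihood test called 6 of them as differentially expressed genes (DEGs), 2 upregulated and 4 downregulated in HOMO. A DEG had a Benjamini-Hochberg adjusted p under 0.05 over the 14150 genes tested and an absolute log2 fold change above 0.6. Over all genes tested 12.1% were DEGs, 5.94% upregulated and 6.18% downregulated. *Nt5e* and *Cd38* were higher in HOMO. *P2rx7*, *P2ry2*, *P2ry6* and *Adora2b* were lower. *P2rx4*, *Adora2a* and *Entpd1* were not called, and *P2ry1* was not tested. At an unadjusted p under 0.05 there were 7 of the 9, against 32.3% of all genes tested. DESeq2 called 7, these 6 and *Entpd1*, against 16.5% of the genes it tested. WT and HOMO levels were without overlap in 5 of the 9 tested genes (*P2rx7*, *P2ry2*, *Adora2b*, *Nt5e* and *Cd38*), against 27.3% of all genes tested. *P2rx7* and *Entpd1* reached the level that the filter requires in 4 WT libraries but only 2 HOMO libraries, so they passed through WT. With no filter on low counts, edgeR still called *P2rx7* (adjusted p = 0.0325). The median log2 fold change of the 9 was −1.14, beside −0.04 for all genes tested. From the same data, the study had already reported *P2rx7*, *P2ry2*, *P2ry6* and *Adora2b* as downregulated and *Cd38* as upregulated. The members were chosen with earlier results known, so these shares do not test the set against all genes. With WT3 and WT4 left out, 4 of the 6 were called (*P2rx7*, *Adora2b*, *Nt5e* and *Cd38*), where that fit called 20.9% of 14912 genes. That fit, here and below, kept only WT1 and WT2 in WT, a near-identical pair. Its p-values therefore rest on a WT spread that may be technical. When the near-identical libraries were summed, which leaves 3 WT and 2 HOMO units, edgeR called 0 of the 10 genes and 0 of all 16130 genes tested, with 7 of these genes and 2057 of all genes at an unadjusted p under 0.05.

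**Figure D1:**
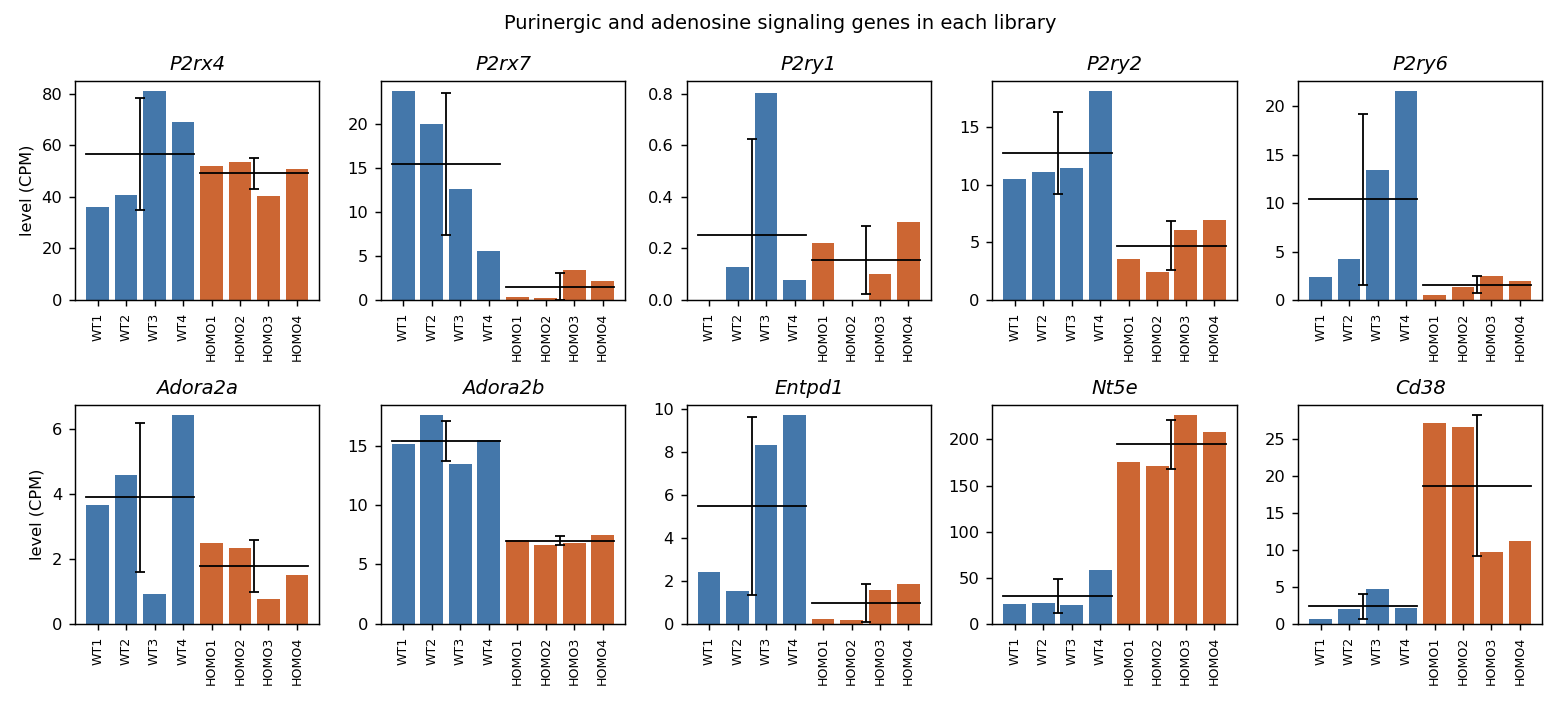
Level of each of the 10 genes in each library, in CPM on TMM-scaled library sizes, with blue bars for WT1 to WT4 and orange bars for HOMO1 to HOMO4. Horizontal lines are the genotype means and error bars the SD over 4 libraries, cut off at 0, and each panel has its own vertical scale. *Nt5e* lies at 171 CPM or above in HOMO and at 58.2 CPM or below in WT, while *Adora2b* is lower in HOMO with little spread in either genotype.

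Promoter windows of 250 bases before the RefSeq start (GRCm38.p6) were found for 8 of the 10 genes, and for *P2rx7*, *P2ry2* and *Entpd1* the first of 2 listed windows was used. Those of the 4 genes that kept their call without WT3 and WT4 are shown. The regions before the RefSeq starts of the genes that rose can thus be set beside those of the genes that fell. Each is written 5′ to 3′ on the strand of the gene, and capitals mark the GC box GGGCGG or its reverse complement CCGCCC, which can overlap. The windows are chr11:62248734-62248983 for *Adora2b*, chr5:122643677-122643926 for *P2rx7*, chr9:88327359-88327608 for *Nt5e* and chr5:43868559-43868808 for *Cd38*, all on the plus strand. By the GENCODE M21 gene positions given below, the windows of *Nt5e* and *Cd38* lie inside the gene. That of *P2rx7* reaches into the gene, and only that of *Adora2b* ends before it.
Adora2b: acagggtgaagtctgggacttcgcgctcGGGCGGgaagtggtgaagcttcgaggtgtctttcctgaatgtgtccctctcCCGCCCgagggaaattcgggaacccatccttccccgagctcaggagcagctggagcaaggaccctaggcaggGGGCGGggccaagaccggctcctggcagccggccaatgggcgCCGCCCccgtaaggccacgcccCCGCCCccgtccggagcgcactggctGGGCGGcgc
P2rx7: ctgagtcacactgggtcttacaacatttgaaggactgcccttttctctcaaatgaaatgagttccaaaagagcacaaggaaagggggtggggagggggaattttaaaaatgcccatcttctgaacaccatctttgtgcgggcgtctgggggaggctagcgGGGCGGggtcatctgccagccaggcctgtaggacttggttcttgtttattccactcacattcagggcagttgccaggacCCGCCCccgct
Nt5e: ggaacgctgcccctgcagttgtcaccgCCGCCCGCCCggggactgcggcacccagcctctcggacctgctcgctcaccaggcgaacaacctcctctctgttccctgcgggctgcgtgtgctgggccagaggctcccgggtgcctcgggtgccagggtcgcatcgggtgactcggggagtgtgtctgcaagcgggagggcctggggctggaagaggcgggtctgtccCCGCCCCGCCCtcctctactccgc
Cd38: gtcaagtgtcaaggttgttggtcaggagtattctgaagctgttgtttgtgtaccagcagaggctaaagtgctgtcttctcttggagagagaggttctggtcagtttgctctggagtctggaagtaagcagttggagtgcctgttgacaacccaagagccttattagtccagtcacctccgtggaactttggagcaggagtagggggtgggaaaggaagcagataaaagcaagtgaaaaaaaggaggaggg

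The *Adora2b* window held 6 GC boxes and 22 CG dinucleotides, and that of *Nt5e* held 4 GC boxes and 21 CG dinucleotides. The window of *P2rx7* held 2 GC boxes and 6 CG dinucleotides. The *Cd38* window had no GC box and 1 CG dinucleotide, and 18.8% of all windows had as few. Among 32851 mouse windows of the same length, 32.7% held a GC box on either strand. The window of *Nt5e*, which rose, was thus close in these counts to that of *Adora2b*, which fell, and unlike that of *Cd38*, which rose too. The cAMP response element TGACGTCA, searched on both strands, was in none of the 8 windows used and in 1.55% of all windows. A match is a run of letters and not a measured binding site.

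The ATP-gated channels lie next to each other on chromosome 5 (GRCm38), *P2rx7* at chr5:122643911-122691432 and *P2rx4* at chr5:122707544-122729738, 16.1 kb apart on the plus strand. P2X7 opens at high concentrations of ATP and is best known in macrophages, where it drives the NLRP3 inflammasome. *P2rx7* was at 23.7, 20.03, 12.6 and 5.61 CPM in WT1 to WT4 and at 0.312, 0.182, 3.40 and 2.11 CPM in HOMO1 to HOMO4. Every HOMO library lay below every WT library, but both genotypes were split: WT1 and WT2 were the highest of all, and HOMO1 and HOMO2, with 7 and 6 counts, were the lowest. The means were 15.5 ± 8.04 CPM in WT and 1.499 ± 1.54 CPM in HOMO (SD, n = 4 each), 10.3-fold lower. The edgeR log2 fold change was −3.39 (SE 0.90, adjusted p = 0.0414). Within WT, *P2rx7* was lower in the libraries with more macrophage RNA, and without WT3 and WT4 its log2 fold change was −3.92 (adjusted p = 0.0200). Within HOMO it was higher in HOMO3 and HOMO4, whose macrophage markers summed to 204 and 230 CPM against 62.7 and 66.7 CPM in HOMO1 and HOMO2. The call was lost when any 1 of 5 libraries was left out, with adjusted p of 0.0726 without WT1, 0.0748 without WT2, 0.107 without HOMO1, 0.0876 without HOMO2 and 0.0832 without HOMO4.

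*P2rx4* encodes a channel that opens at lower ATP concentrations and is found in many cell types, often in endosomes and lysosomes. It was at 36.1, 40.8, 80.9 and 69.1 CPM in WT1 to WT4 and at 51.8, 53.4, 40.2 and 51.0 CPM in HOMO1 to HOMO4. The genotypes overlapped, and the highest libraries were WT3 and WT4, the ones rich in macrophage markers. The log2 fold change was −0.21 (SE 0.26, edgeR adjusted p = 0.621). Its direction was not settled, with 0.0085 without WT3 and 0.35 without WT3 and WT4 (adjusted p = 0.0961).

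P2Y2 responds to ATP and UTP and P2Y6 to UDP, and both act through Gq and phospholipase C. Their genes lie on the minus strand of chromosome 7, *P2ry2* at chr7:100996568-101012866 and *P2ry6* at chr7:100937630-100974649, 21.9 kb apart. *P2ry2* was at 10.5, 11.1, 11.4 and 18.1 CPM in WT1 to WT4 and at 3.52, 2.42, 6.03 and 6.92 CPM in HOMO1 to HOMO4. No HOMO library reached the lowest WT library. WT4 was above the other WT libraries, and HOMO1 and HOMO2 were below HOMO3 and HOMO4. The means were 12.8 ± 3.56 CPM in WT and 4.72 ± 2.10 CPM in HOMO (SD, n = 4 each), 2.70-fold lower. The edgeR log2 fold change was −1.44 (SE 0.36, adjusted p = 0.0360). Without WT3 and WT4 it was −1.20 and was not called (adjusted p = 0.0604). Leaving out single libraries also ended the call, with adjusted p of 0.0507 without WT1, 0.0588 without WT2, 0.0622 without WT4, 0.115 without HOMO1, 0.0893 without HOMO2 and 0.0607 without HOMO3.

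*P2ry6* was at 2.36, 4.25, 13.4 and 21.5 CPM in WT1 to WT4 and at 0.535, 1.30, 2.48 and 2.01 CPM in HOMO1 to HOMO4. This was the 1 DEG among the members whose genotypes overlapped, since HOMO3 lay above WT1. WT3 and WT4 were far above WT1 and WT2, as the macrophage markers were. The means were 10.4 ± 8.85 CPM in WT and 1.58 ± 0.850 CPM in HOMO (SD, n = 4 each), 6.56-fold lower. Its edgeR log2 fold change was −2.72 (SE 0.75, adjusted p = 0.0462). Without WT3 and WT4 the difference shrank to −1.08 on the log2 scale (SE 0.56, adjusted p = 0.181). P2Y6 is well known in macrophages and microglia, where it promotes phagocytosis, and the part of the macrophage RNA in this difference was not tested. The call also ended without WT2 (0.0503), WT3 (0.0634), WT4 (0.0846), HOMO1 (0.123), HOMO2 (0.136), HOMO3 (0.0748) or HOMO4 (0.0913), each value an adjusted p. Median log2 fold changes by chromosome ran from −0.31 (chromosome 18) to 0.37 (chromosome 8). For genes of chromosome 7 as a whole the median was −0.29. In WT3 their median level stood 0.35 on the log2 scale above the mean of the other 3 WT libraries, relative to all genes. The part of this shift in the differences of *P2ry2* and *P2ry6* was not tested.

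**Figure D2:**
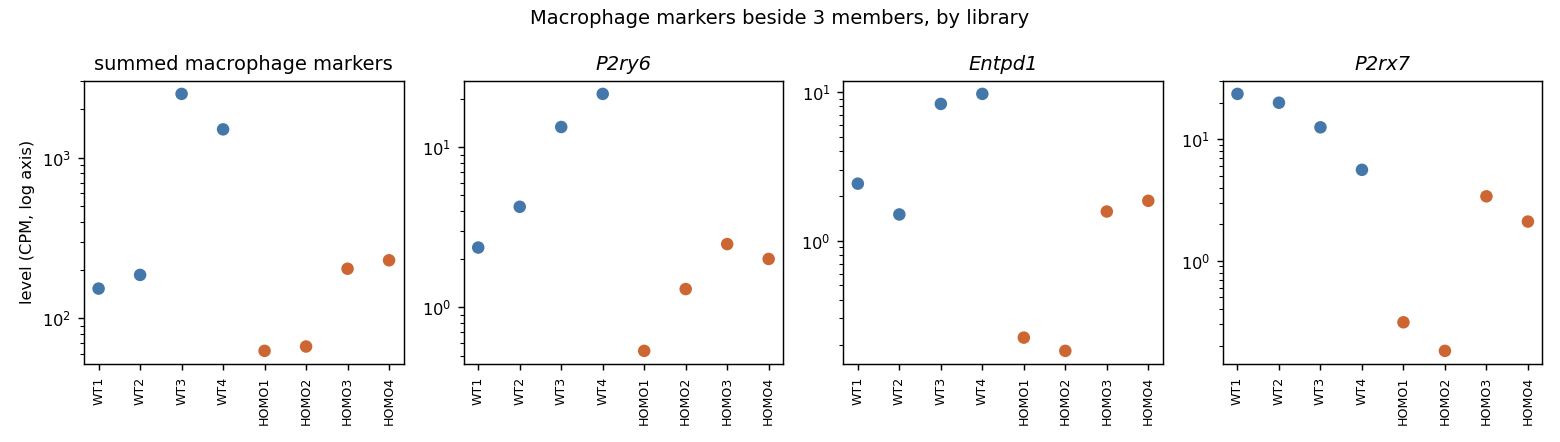
Summed level of the 14 macrophage markers and levels of *P2ry6*, *Entpd1* and *P2rx7* in each library, in CPM on log axes, with blue points for WT and orange points for HOMO. *P2ry6* and *Entpd1* are highest in WT3 and WT4, like the markers, while *P2rx7* is highest in WT1 and WT2 at 23.7 and 20.03 CPM.

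*P2ry1*, which encodes the ADP receptor that shares the Gq pathway, was hardly detected. WT1 to WT4 held 0, 3, 14 and 2 counts of it and HOMO1 to HOMO4 held 5, 0, 2 and 6, and it did not pass the filter. A two-sided exact permutation test of log2 CPM over the 70 assignments of libraries gave a p of 0.886, where the smallest possible value is 0.0286. A difference was not detectable at this depth. The gene lies at chr3:61002795-61008982, and 23.1% of its exon length overlaps the antisense gene *Gm37035* on the opposite strand. The strand setting of the counting is not given in the sources used here, so reads of both genes cannot be told apart.

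The A2B receptor has a low affinity for adenosine, couples to Gs and is the adenosine receptor most often described in fibroblasts. *Adora2b* (chr11:62248984-62266453) was at 15.2, 17.6, 13.5 and 15.5 CPM in WT1 to WT4 and at 7.09, 6.66, 6.84 and 7.47 CPM in HOMO1 to HOMO4. The genotypes were clearly separated, and within each of them the libraries were close together. WT3 and WT4, rich in macrophage RNA, lay on either side of WT1. The means were 15.4 ± 1.68 CPM in WT and 7.01 ± 0.351 CPM in HOMO (SD, n = 4 each), 2.20-fold lower. The edgeR log2 fold change was −1.14 (SE 0.16, adjusted p = 0.00559), with −1.23 without WT3 and WT4 (adjusted p = 0.00154). It was called in all 8 fits that left out 1 library, with adjusted p of at most 0.0301. Leaving out 1 library of a near-identical pair kept the other, so these fits do not show independence from a whole pair.

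The receptor encoded by *Adora2a* has a high affinity for adenosine and is prominent on leukocytes and in the striatum. *Adora2a* (chr10:75316877-75334784) was at 3.66, 4.59, 0.918 and 6.43 CPM in WT1 to WT4 and at 2.50, 2.33, 0.760 and 1.504 CPM in HOMO1 to HOMO4. WT3 was the lowest WT library and lay below 3 of the 4 HOMO libraries. The log2 fold change, −1.13 (SE 0.58, edgeR adjusted p = 0.214), was close in size to that of *Adora2b*, but its standard error was larger. Without WT3 it was −1.46 and was called (adjusted p = 0.0488), and without WT3 and WT4 it was −1.21 (adjusted p = 0.0801).

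Among the ecto-enzymes, *Nt5e* (chr9:88327197-88372092) had the most counts. It was at 21.6, 22.5, 19.9 and 58.2 CPM in WT1 to WT4 and at 175, 171, 226 and 208 CPM in HOMO1 to HOMO4. All HOMO libraries were far above WT, and WT4 was the 1 WT library apart from the rest. The means were 30.6 ± 18.5 CPM in WT and 195 ± 26.6 CPM in HOMO (SD, n = 4 each), 6.38-fold higher. The edgeR log2 fold change was 2.67 (SE 0.37, adjusted p = 0.00487). It was 3.14 without WT3 and WT4 (adjusted p = 1.69e-04), where the near-identical WT1 and WT2 were the only WT libraries. *Nt5e* was called whichever single library was left out, with adjusted p of at most 0.0192. None of these fits left out a whole near-identical pair, so they do not show that the call is independent of such a pair. WT3 and WT4, the macrophage-rich libraries, lay at opposite ends of the WT range.

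*Entpd1*, whose product CD39 makes the AMP that CD73 uses, went the other way in its values. The gene (chr19:40612366-40741602) was at 2.42, 1.501, 8.32 and 9.72 CPM in WT1 to WT4 and at 0.223, 0.182, 1.57 and 1.85 CPM in HOMO1 to HOMO4. HOMO3 and HOMO4 reached the level of WT2, so the genotypes overlapped, and in both of them the higher libraries were those with more macrophage RNA. The log2 fold change of −2.54 (SE 0.90, edgeR adjusted p = 0.0937) was not called. Without WT3 and WT4 it was −1.06 (SE 0.92, adjusted p = 0.403). CD39 is abundant on macrophages, lymphocytes and endothelium, and the part of such cells in these values was not tested.

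*Cd38* (chr5:43868553-43912375) encodes an enzyme that cleaves NAD and makes cyclic ADP-ribose, a calcium-mobilizing messenger. It was at 0.619, 1.97, 4.76 and 2.09 CPM in WT1 to WT4 and at 27.3, 26.7, 9.78 and 11.2 CPM in HOMO1 to HOMO4. All HOMO libraries were above all WT libraries, and HOMO1 and HOMO2 were again apart from HOMO3 and HOMO4, here on the high side. The means were 2.36 ± 1.73 CPM in WT and 18.7 ± 9.55 CPM in HOMO (SD, n = 4 each), 7.93-fold higher. The edgeR log2 fold change was 2.99 (SE 0.61, adjusted p = 0.0186), and without WT3 and WT4 it was 3.81 (adjusted p = 0.0105). The call ended without HOMO1 (adjusted p = 0.0626) or without HOMO2 (0.0627). *Bst1*, the related NAD enzyme gene 24.6 kb upstream, did not share this pattern. WT1 to WT4 held 2, 5, 42 and 30 counts of it and each HOMO library 2 or 3. It did not pass the edgeR filter, and its two-sided exact permutation p was 0.0857, while DESeq2 called it lower in HOMO (log2 fold change −3.03, adjusted p = 0.0143).

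**Figure D3:**
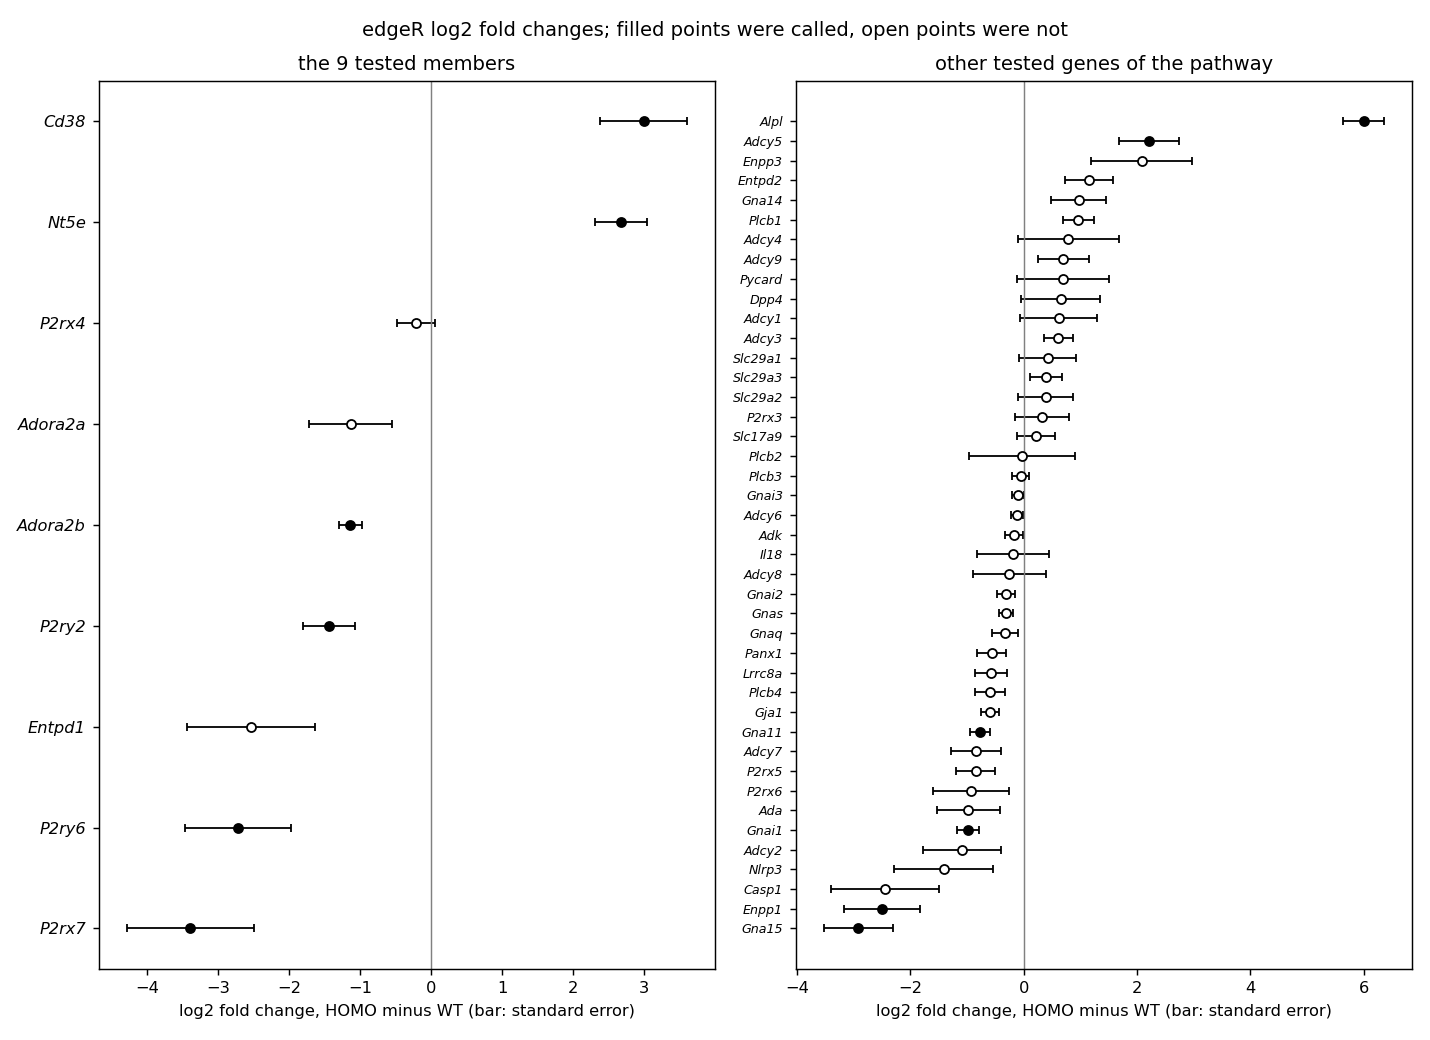
Log2 fold changes of HOMO minus WT from edgeR, with standard errors as bars, for the 9 tested members at the left and the 42 other tested genes of the pathway at the right. Filled points were called and open points were not, and the 2 panels have different horizontal scales. *Cd38* and *Nt5e* lie at 2.99 and 2.67, 7 members lie below 0, and *Alpl* stands at 6.004 among the other genes.

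Levels can be compared between genes per length of exon, as RPKM (CPM divided by the kilobases of GENCODE M21 exons of the gene). In WT the highest mean levels were those of *Adora2b* (8.37 ± 0.912 RPKM) and *P2rx4* (8.08 ± 3.09 RPKM), followed by *P2ry6* (3.59), *Nt5e* (3.55), *P2ry2* (3.25), *P2rx7* (2.59), *Adora2a* (1.27), *Entpd1* (0.984), *Cd38* (0.607) and *P2ry1* (0.0588). Each of these overlapped its next neighbour over the 4 WT libraries. In HOMO the order began with *Nt5e* (22.7 ± 3.09 RPKM), which did not overlap the next gene, *P2rx4* (6.99 ± 0.856 RPKM). *Cd38* at 4.82 RPKM and *Adora2b* at 3.80 RPKM came next, each overlapping the gene before it, and another gap without overlap separated *Adora2b* from *P2ry2* at 1.20 RPKM. *Adora2a* (0.579), *P2ry6* (0.548), *P2rx7* (0.251), *Entpd1* (0.172) and *P2ry1* (0.0364) came last, each overlapping its next neighbour.

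Ratios of related genes within a library do not depend on the scaling of the library. The log2 ratio of *Nt5e* over *Entpd1* counts (0.5 added to each) was 3.14, 3.89, 1.26 and 2.58 in WT1 to WT4 and 9.48, 9.76, 7.15 and 6.79 in HOMO1 to HOMO4. The genotypes did not overlap, and the difference in means was 5.58. A two-sided exact permutation test gave a p of 0.0286, the smallest that 70 assignments allow, and 0.114 after Benjamini-Hochberg adjustment over the 4 ratios computed.

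For *P2rx7* over *P2rx4* the log2 ratio was −0.61, −1.03, −2.68 and −3.62 in WT and −7.28, −8.08, −3.56 and −4.58 in HOMO. HOMO3 lay just above WT4, so the genotypes overlapped (difference −3.89, exact permutation p = 0.0571, adjusted p = 0.114). The ratio of *P2ry6* over *P2ry2* differed by −0.89 on the log2 scale (exact permutation p = 0.257, adjusted p = 0.343), with WT3 and WT4 at 0.23 and 0.25 and the other 6 libraries between −2.67 and −0.89. The ratio of *Adora2b* over *Adora2a* differed by −0.16 (exact permutation p = 0.771, adjusted p = 0.771), and WT3 was the highest at 3.84. None of the 4 ratios passed the adjusted threshold.

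**Figure D4:**
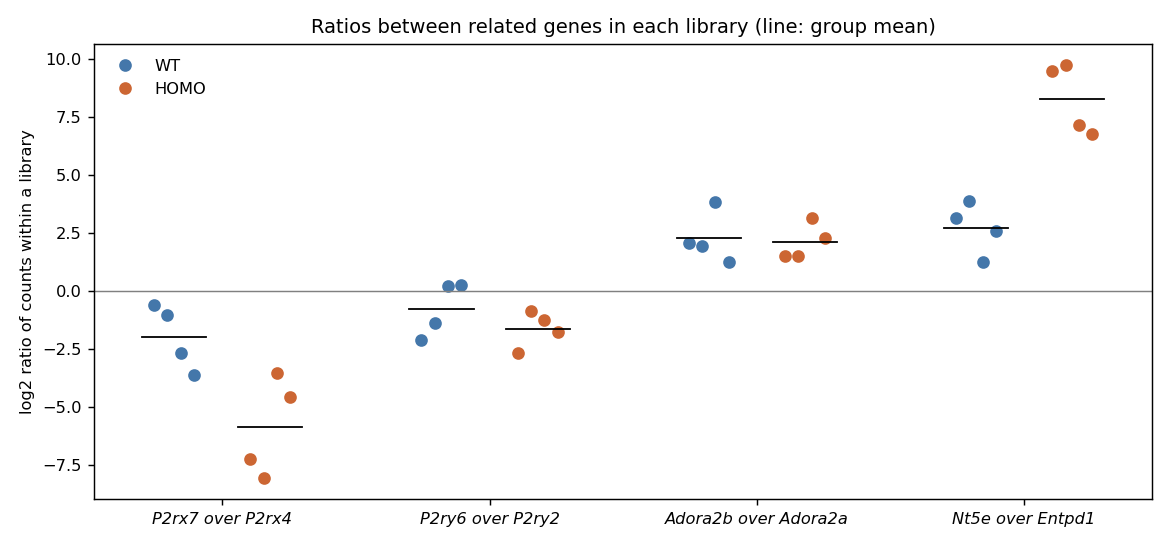
Log2 ratio of the counts of 2 related genes within each library, with blue points for WT, orange points for HOMO and short lines for the means of 4 libraries. *Nt5e* over *Entpd1* lies between 6.79 and 9.76 in HOMO and between 1.26 and 3.89 in WT, and the other 3 ratios overlap between genotypes.

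The rest of the pathway was read from a list of 60 other genes, of which 42 were tested. Of these, 6 were called, 2 upregulated and 4 downregulated, 14 had an unadjusted p under 0.05, and the median log2 fold change was −0.14. Over all genes tested 12.1% were called and 32.3% had an unadjusted p under 0.05, so in this fit the pathway's shares were near the background. Limma-voom called 18 of the 42, where it called 3573 of all 14150 genes. Without WT3 and WT4, 16 of the 60 pathway genes were called, in the fit that called 20.9% of all genes. How many of the 60 that fit tested was not counted. Leaving out HOMO1 or HOMO2 left 1 call, that of *Alpl*, and leaving out WT2 or HOMO4 left 3, those of *Alpl*, *Gnai1* and *Gna15*, while 11 were called without WT3. Among the other 6 ectonucleotidase genes, 4 were tested, with 1 up and 1 down. *Alpl*, tissue-nonspecific alkaline phosphatase, removes phosphates from ATP, ADP and AMP and from pyrophosphate. WT1 to WT4 held 10, 24, 31 and 45 counts of it, and HOMO1 to HOMO4 held 2180, 2943, 1512 and 1363. Every HOMO library was far above WT, and the mean rose from 1.28 ± 0.589 to 82.8 ± 12.8 CPM (SD, n = 4 each), 64.8-fold. Its edgeR log2 fold change was 6.004 (SE 0.36, adjusted p = 1.65e-04).

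*Enpp1* encodes the enzyme that splits ATP into AMP and pyrophosphate. It was at 19.2, 16.3, 3.90 and 9.68 CPM in WT1 to WT4 and at 0.758, 0.938, 3.19 and 3.86 CPM in HOMO1 to HOMO4. The HOMO libraries lay below all of WT, although HOMO4 came close to WT3. The edgeR log2 fold change was −2.496 (SE 0.67, adjusted p = 0.0422). For *Entpd3*, a further ecto-nucleotidase that did not pass the filter, WT1 to WT4 held 0, 1, 6 and 0 counts and HOMO1 to HOMO4 held 75, 92, 14 and 3. A two-sided exact permutation test gave a p of 0.0571. DESeq2 called it higher in HOMO (log2 fold change 4.26, adjusted p = 0.00384), and so did edgeR without WT3 (adjusted p = 0.0255) and without WT3 and WT4 (adjusted p = 0.0475). It was named after its values were seen.

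**Figure D5:**
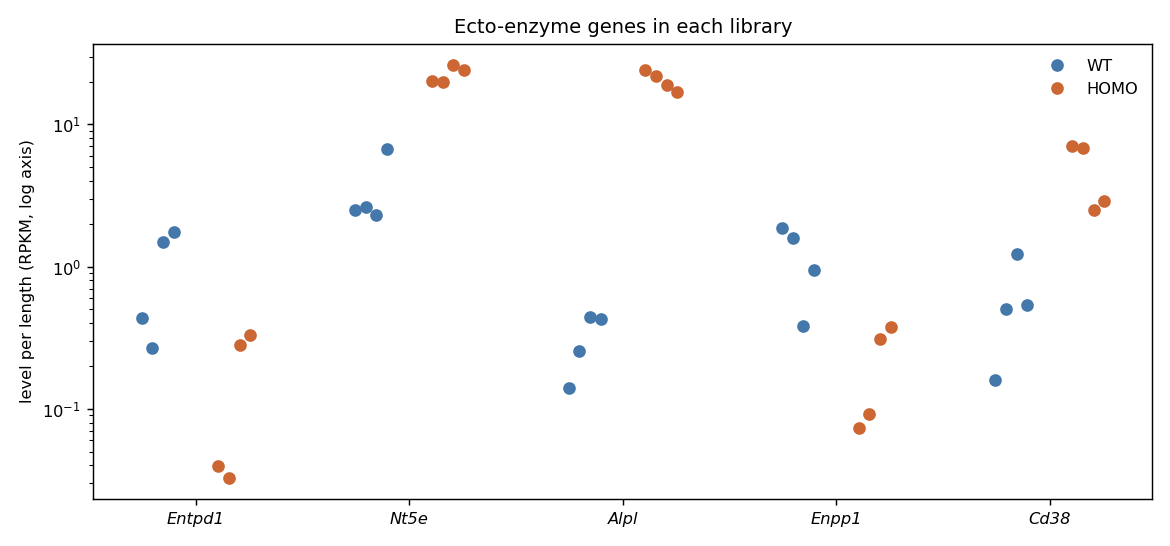
Level per exon length of 5 ecto-enzyme genes in each library, in RPKM on a log axis, with blue points for WT and orange points for HOMO. In HOMO, *Nt5e* and *Alpl* have mean levels of 22.7 and 20.5 RPKM, while *Entpd1* and *Enpp1* lie at 0.172 and 0.213 RPKM.

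Among 8 genes for G proteins that carry these receptors' signals, all were tested, 3 were called and all 3 were downregulated. Over all genes tested 12.1% were called, with 6.18% downregulated. *Gnai1*, an inhibitory alpha subunit, was at 63.5, 61.3, 80.2 and 43.2 CPM in WT1 to WT4 and at 27.5, 33.4, 34.1 and 30.4 CPM in HOMO1 to HOMO4, without overlap. Its edgeR log2 fold change was −0.98 (SE 0.19, adjusted p = 0.0153). The other inhibitory alpha subunit genes listed, *Gnai2* and *Gnai3*, were at higher levels and were not called. Over the 8 libraries they lay at 8.73 to 9.48 and at 6.94 to 7.27 log2 CPM. *Gna11*, one of the Gq class used by P2Y receptors, was at 188, 173, 145 and 235 CPM in WT1 to WT4 and at 94.5, 96.2, 128 and 115 CPM in HOMO1 to HOMO4. The 2 genotypes again did not overlap, and the log2 fold change was −0.77 (SE 0.18, adjusted p = 0.0280). *Gna15*, of the same class and typical of blood cells, had 18 to 23 counts in every WT library, against 1, 1, 5 and 4 in HOMO1 to HOMO4. It passed the filter through the 4 WT libraries alone, with 0 HOMO libraries at the level required, so its call (edgeR adjusted p = 0.0200) rests on few counts and on the choice of filter. It was not tested when a CPM above 1 in at least 4 libraries was required.

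All 13 effector enzyme genes were tested, with 3 at an unadjusted p under 0.05. DESeq2 called 2 of them. Limma-voom called 8, where it called 3573 of all 14150 genes. Without WT3 and WT4 edgeR called 5, in the fit that called 20.9% of all genes. With all 8 libraries edgeR called 1, *Adcy5*, an adenylyl cyclase. It was at 0.731, 1.67, 5.39 and 3.21 CPM in WT1 to WT4 and at 11.3, 11.6, 12.1 and 16.0 CPM in HOMO1 to HOMO4. No WT library reached HOMO, and the log2 fold change was 2.21 (SE 0.53, edgeR adjusted p = 0.0302).

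Nucleotide release was covered by 6 genes, of which 4 were tested and edgeR called 0, with 1 (*Gja1*) at an unadjusted p under 0.05, 1 (*Panx2*, outside the edgeR test) called by DESeq2 and 0 by limma-voom. *Gja1*, connexin 43, was at 102, 85.0, 98.2 and 77.9 CPM in WT1 to WT4 and at 54.4, 48.6, 73.4 and 64.5 CPM in HOMO1 to HOMO4. All HOMO libraries were lower than WT, but its log2 fold change of −0.59 (SE 0.16, edgeR adjusted p = 0.0469) was just under the threshold of size. *Panx1*, the pannexin channel through which ATP leaves cells, had a log2 fold change of −0.56 (SE 0.26, adjusted p = 0.167), with 15.1 ± 3.99 CPM in WT and 10.2 ± 2.63 CPM in HOMO. Of 10 genes for adenosine uptake and removal, 6 were tested and edgeR called 0, with 0 at an unadjusted p under 0.05, 0 called by DESeq2 and 2 (*Ada* and *Dpp4*) by limma-voom. *Ada*, adenosine deaminase, was at 13.2 ± 6.56 CPM in WT and 6.70 ± 4.69 CPM in HOMO (log2 fold change −0.97, SE 0.56, edgeR adjusted p = 0.260). The transporter gene *Slc29a1* was at 51.5 ± 35.2 CPM in WT and 69.3 ± 20.4 CPM in HOMO (log2 fold change 0.43, SE 0.50, edgeR adjusted p = 0.594).

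Of 5 further P2X genes 3 were tested and edgeR called 0, with 1 at an unadjusted p under 0.05 and 0 called by DESeq2 or limma-voom. The 1 was *P2rx5*, named after its values were seen, at 8.89, 10.3, 23.1 and 8.09 CPM in WT1 to WT4 and 6.03 to 7.36 CPM in HOMO (log2 fold change −0.84, SE 0.35, edgeR adjusted p = 0.132). WT3 was far above the other libraries, and HOMO lay below all of WT. None of 4 further P2Y genes and none of 2 further adenosine receptor genes passed the edgeR filter. For *P2ry14*, the receptor for UDP-glucose, WT1 to WT4 held 0, 1, 111 and 20 counts and HOMO1 to HOMO4 held 0, 1, 0 and 2. Nearly all of its reads came from WT3 and WT4, the macrophage-rich libraries, and the two-sided exact permutation p was 0.257. DESeq2 called it lower in HOMO (log2 fold change −5.78, adjusted p = 0.0494). Of the 5 genes for the inflammasome downstream of P2X7, 4 were tested and edgeR called 0, with 1 (*Casp1*) at an unadjusted p under 0.05. DESeq2 called the same 1, lower in HOMO (log2 fold change −2.45, adjusted p = 0.0357). Limma-voom called 2, *Il18* and *Pycard*, each higher in HOMO (log2 fold changes 1.13 and 3.24). All 3 were named after their values were seen. *Il1b* had 0 counts in all 8 libraries.

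For each called member, the 3 tested genes with the most similar log2 CPM over the 8 libraries were listed as a description. These 8 points include 3 near-identical pairs and a shift between genotypes, which raise any such correlation. For *Nt5e* they were *Gpt2*, *Nfix* and *Sorl1* (Pearson r 0.997, 0.993 and 0.993), and for *Cd38* they were *Zfp964*, *Ppp4r4* and *Npl* (0.994, 0.990 and 0.989). For *Adora2b* they were *Fbxw10*, *Crip2* and *Tmed5* (0.996, 0.988 and 0.986), and for *P2ry2* they were *Eef2k*, *Synpo2* and *Mfap3l* (0.990, 0.990 and 0.989). *P2rx7* was closest to *Usp14*, *Gm30074* and *Nomo1* (0.993, 0.993 and 0.992). *P2ry6* was closest to *Picalm*, *3110070M22Rik* and *Eif2b2* (0.987, 0.980 and 0.980).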

How the data were processed

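Before deposition, the authors used fastp for trimming, STAR for alignment to mm10 and featureCounts for counting, and they deposited raw counts by gene symbol. Versions, annotation and strand setting are not given in the sources used here. The name of the deposited table refers to an outlier left out, which was not analysed here. All 8 libraries were used, grouped by genotype. The 10 members and all lists were chosen with earlier results of these data known.

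Counts were tested with edgeR 4.0.16 in R 4.3.3 (TMM normalization, filterByExpr by genotype, two-sided quasi-likelihood F test, Benjamini-Hochberg adjustment over 14150 genes). The SE was the size of the log2 fold change over the square root of F. Log2 CPM has a prior count of 2. Alternatives used DESeq2 1.42.0, limma-voom (limma 3.58.1) with sample weights, other normalizations and filters, a replicate block, no fold threshold, summed near-identical libraries, and each library left out in turn. Leaving out WT3 and WT4 together was chosen after the data were seen, and it left only the near-identical WT1 and WT2 in WT. Positions and exon lengths are from GENCODE M21 (53744 entries matched). Named besides the members were called pathway genes, 7 fixed pathway genes and the 3 genes most alike to each called member. The scripts were tested on simulated data.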

Additional observations from a re-analysis of the deposited data

Results flagged for a closer look

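In 28 genotype groups of 4 libraries, 1 library was tested for standing apart from the other 3 (Dixon's criterion), and 3 were found. For independent values chance gives this in about 1 of 20 groups. The libraries include near-identical pairs, and the groups include ratios of the same genes, so that rate does not hold here. *Nt5e* in WT4 was at 5.87 log2 CPM, where WT1 to WT3 lay between 4.32 and 4.50. This library lies between the other WT libraries and HOMO, and without it the genotypes are farther apart. *P2ry2* in WT4 was at 4.18 log2 CPM, against 3.40 to 3.52 in WT1 to WT3. *P2rx4* in HOMO3 was at 5.33 log2 CPM, against 5.67 to 5.74 in the other HOMO libraries.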

How the results depend on the processing

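Direction and call of *Adora2b* and *Nt5e* were kept in 17 of 18 alternatives, of *Cd38* in 14, *P2rx7* in 11, *P2ry2* in 10 and *P2ry6* in 9. The 6 called members became 0 when near-identical libraries were summed (fewer units, lowest adjusted p 0.235), and 2 to 6 when 1 library was left out, 2 without HOMO1 or HOMO2 and 3 without WT2. The 6 called pathway genes became 12 in DESeq2, 18 in limma-voom, 16 without WT3 and WT4, 0 when summed, and 1 to 11 when 1 library was left out (1 without HOMO1 or HOMO2, 3 without WT2 or HOMO4, 11 without WT3). DEGs over all genes were 2913 in DESeq2, 3573 in limma-voom, 3117 without WT3 and WT4, 0 when summed and 507 to 2192 when 1 library was left out, against 1716. The cause of these changes was not tested.

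The log2 fold change of *P2rx4* turned to 0.25 in limma-voom and 0.35 without WT3 and WT4, and ranged from −0.37 to 0.0085 when 1 library was left out. The difference in mean log2 CPM of *P2ry1* ranged there from −0.58 to 0.53, and the ratio of *Adora2b* over *Adora2a* from −0.50 to 0.36. *Entpd1* was called in DESeq2 (adjusted p = 0.0128), and *Adora2a* in limma-voom (0.00455).

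Same-numbered WT and HOMO libraries did not deviate together (correlations −0.12 to 0.01), so the numbers were not taken to pair them. With the replicate block, 5 members and 3 pathway genes were called, with 947 DEGs over all genes. *P2rx7* (adjusted p = 0.114) and *Cd38* (0.0730) were not called under the block, and *Entpd1* was (0.0190). No sample correlated best with its own number.

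Depth limits *P2ry1*, and low counts limit *P2rx7*, *Entpd1* and *Cd38* in 1 genotype each.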
